A study of Mus musculus with 9 samples.

Results

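The genes described here are 8 carriers of amino acids across membranes, or subunits of such carriers, out of 54059 genes measured in 9 libraries of mouse peritoneal macrophages. They are Slc43a2, Slc7a5, Slc3a2, Slc7a7, Slc7a8, Slc1a5, Slc38a2 and Slc7a1. The set was chosen by the values of Slc43a2 itself, which was higher than in wild type both in macrophages with Shp2 deleted and in macrophages given an SHP2 inhibitor, so its differences from wild type are a description and were not tested. All 8 genes were among the 11450 tested, those whose FPKM averaged 1 or more across the libraries. FPKM is the number of fragments of a gene scaled by transcript length and by sequencing depth.

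RNA was sequenced from adherent peritoneal cells of C57BL/6 mice aged 8 weeks per the labels, with 3 libraries in each group. The cells were washed out 3 days after starch broth was injected and were stimulated in vitro for 4 h with imiquimod (IMQ), an agonist of the RNA sensor TLR7, in all 3 groups, so no unstimulated cells were compared. The wild-type group (WT) had intact Shp2. The M-Shp2-/- group came from mice with a floxed Shp2 gene and Lyz2-cre, which is active in monocytes, macrophages and granulocytes and leaves Shp2 in other cells. In the SHP099 group, wild-type cells were exposed to SHP099, an allosteric inhibitor of the phosphatase SHP2, at 10 µM for 2 h before IMQ at 10 µg/ml. Whether libraries of a group came from separate mice is not given in the sources used here, so that p values measure only the spread between these samples.

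Amino acids enter cells through carriers that differ in substrate, ion coupling and direction. CD98, a heavy chain encoded by Slc3a2, holds light chains such as LAT1 (Slc7a5), LAT2 (Slc7a8) and y+LAT1 (Slc7a7) at the plasma membrane, where they exchange one amino acid for another. LAT4, encoded by Slc43a2, is a sodium-independent uniporter of leucine, isoleucine, valine, phenylalanine and methionine and needs no heavy chain. The imported amino acids feed protein synthesis and signal to the kinase complex mTORC1, and their shortage raises translation of the transcription factor ATF4, which drives a program that includes Slc7a5, Slc38a2 and Slc7a1.

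The libraries held 39841813 to 50979545 reads in the normalization. Ptpn11, the gene of SHP2, had an FPKM of 45.8, 44.0 and 40.0 in WT, 18.6, 17.8 and 18.9 in M-Shp2-/- and 43.0, 42.1 and 39.6 with SHP099 (M-Shp2-/- against WT, log2 fold change -1.19, adjusted p = 0.0168). The summed FPKM of 9 macrophage markers was 10620 to 13599.5 in WT, 7661 to 8586 in M-Shp2-/- and 11955 to 13930.2 with SHP099. Most of it was Lyz2, the locus that carries the cre, at 7440 to 10228 in WT, 4743 to 5407 in M-Shp2-/- and 9348 to 10715 with SHP099. Without Lyz2 the sum of the other 8 was 3179.7 to 3448 in WT, 2918 to 3179.1 in M-Shp2-/- and 2606 to 3215 with SHP099. Among these 8, Csf1r averaged 78.9, 112 and 199 and Cd68 1377, 1523 and 1250.3 in the 3 groups. Both were higher in M-Shp2-/- than in WT although the sum was lower, so other markers of the list went the other way. An FPKM of 1 in every library was reached by 8 of the 9 markers. Over the tested genes the median log2 fold change was 0.15 in M-Shp2-/- and 0.13 with SHP099 against WT, and 77.4% and 71.2% of them were higher than in WT. The part that differences in these markers have in the members' values was not tested. Without WT replicate 3 the medians were 0.084 and 0.061. Median-of-ratios scaling, which centres most genes by construction, moved both medians to about 0. Member values and list medians that it moves strongly are given under it as well. One library stood apart: M-Shp2-/- replicate 3 correlated with the other M-Shp2-/- libraries at r = 0.954 and 0.967, against 0.992 between those, and the main results that rest on it are given with and without it.

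RefSeq promoter windows, which run from 250 bases before to 50 bases after an annotated start, matched 6 of the 8 members in 12 windows and did not hold Slc7a5 and Slc1a5. The motifs were searched on both strands: the C/EBP-ATF composite site TGATGNAA that ATF4 dimers bind, the AP-1 site TGANTCA, the E-box CACGTG, the TATA box TATAAA and the CCAAT box CCAAT. Among all 32851 windows of 300 bases, 3.97% held the composite site, 7.81% the AP-1 site, 7.15% the E-box, 13.6% the TATA box and 37.4% the CCAAT box. The windows below are those of Slc43a2, on which the set was chosen, of Slc38a2 and Slc7a1, which varied together between libraries, and of Slc7a7, which alone among the 6 members searched held the composite site. They are written 5′ to 3′ along the gene on GRCm38.p6 with the matches in capitals, and the matches printed do not overlap each other.
Slc43a2, chr11:75531444-75531743, strand +: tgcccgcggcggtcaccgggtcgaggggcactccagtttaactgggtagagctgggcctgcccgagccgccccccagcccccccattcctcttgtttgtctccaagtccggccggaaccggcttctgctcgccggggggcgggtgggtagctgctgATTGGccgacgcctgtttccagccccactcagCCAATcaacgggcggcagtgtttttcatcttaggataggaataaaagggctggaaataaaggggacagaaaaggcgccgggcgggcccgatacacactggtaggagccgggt
Slc43a2, chr11:75531862-75532161, strand +: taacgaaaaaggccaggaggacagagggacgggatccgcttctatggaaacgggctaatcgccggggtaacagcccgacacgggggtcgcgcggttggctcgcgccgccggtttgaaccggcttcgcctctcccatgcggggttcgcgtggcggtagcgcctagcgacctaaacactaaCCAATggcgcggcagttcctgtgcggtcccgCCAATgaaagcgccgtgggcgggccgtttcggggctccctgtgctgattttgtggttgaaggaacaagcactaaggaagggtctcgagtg
Slc38a2, chr15:96699679-96699978, strand -: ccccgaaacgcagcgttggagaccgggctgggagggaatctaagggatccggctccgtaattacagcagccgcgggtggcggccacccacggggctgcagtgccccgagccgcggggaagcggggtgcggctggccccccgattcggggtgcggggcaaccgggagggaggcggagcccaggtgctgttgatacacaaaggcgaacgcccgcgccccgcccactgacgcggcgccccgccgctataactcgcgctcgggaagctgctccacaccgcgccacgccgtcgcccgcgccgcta
Slc7a1, chr5:148399855-148400154, strand -: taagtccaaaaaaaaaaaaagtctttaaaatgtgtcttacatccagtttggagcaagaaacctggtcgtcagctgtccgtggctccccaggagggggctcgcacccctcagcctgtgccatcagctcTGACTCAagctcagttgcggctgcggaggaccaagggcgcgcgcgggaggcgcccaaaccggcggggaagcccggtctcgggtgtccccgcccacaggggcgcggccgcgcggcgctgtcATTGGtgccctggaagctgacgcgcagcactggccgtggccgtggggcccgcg
Slc7a7, chr14:54417895-54418194, strand -: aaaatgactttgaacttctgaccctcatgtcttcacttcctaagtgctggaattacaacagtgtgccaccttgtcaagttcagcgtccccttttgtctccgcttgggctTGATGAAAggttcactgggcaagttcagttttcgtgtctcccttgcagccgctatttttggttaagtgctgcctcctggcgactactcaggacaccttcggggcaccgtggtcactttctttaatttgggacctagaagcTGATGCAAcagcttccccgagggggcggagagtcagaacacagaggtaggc

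Both Slc43a2 windows held 2 CCAAT boxes, 94 and 62 bases before the first start and 71 and 40 bases before the second, and neither held any of the other 4 motifs. The first Slc7a7 window held TGATGAAA 141 bases and TGATGCAA 1 base before the start. The second Slc7a7 window, which overlaps the first and is not printed, held TGATGCAA 243 bases before its start. Slc7a7 had 5 windows and Slc38a2 had 1, while the shares among all windows are per window. In Slc7a1, TGACTCA lay 123 bases and a CCAAT box 3 bases before the first start, and the second window, which is not printed, held a TATA box 28 bases before its start. None of the 5 motifs was in the Slc38a2, Slc3a2 and Slc7a8 windows. A match is only a run of letters, and nothing follows from it, or from its lack, about binding.

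Slc43a2 (ENSMUSG00000038178, chr11:75531694-75577575, plus strand, GRCm38) encodes the uniporter LAT4. Its FPKM was 23.8, 13.7 and 13.1 in WT, 44.4, 44.2 and 36.2 in M-Shp2-/-, and 59.0, 79.7 and 54.0 with SHP099. The 3 groups lay one above the other without overlap, with WT lowest and SHP099 highest. The means were 16.9 ± 6.02, 41.6 ± 4.70 and 64.2 ± 13.6 (SD, n = 3 each), which is 2.46 times WT in M-Shp2-/- and 3.80 times WT with SHP099. The log2 fold change of FPKM + 1 was 1.30 in M-Shp2-/- and 1.90 with SHP099, the seventh and the fourth highest of all tested genes. These values rest on 1229 to 6984 reads per library.

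The difference of M-Shp2-/- from SHP099 was not used to choose the set. Slc43a2 was lower in M-Shp2-/- by a log2 fold change of -0.60 (95% interval -0.98 to -0.22), and it did not pass the test (adjusted p = 0.279, limma). The highest M-Shp2-/- library, at 44.4, lay below the lowest SHP099 library, at 54.0, as it did for 9.76% of all tested genes. Without M-Shp2-/- replicate 3 the log2 fold change was -0.51 (adjusted p = 0.0705).

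The exons of Slc43a2 share 922 bases with the antisense gene Gm45606, and the strand of counting is not given in the sources used here. Gm45606 had at most 25 reads in a WT library and at most 80 in any other. Its mean FPKM was 0.128 in WT, 0.515 in M-Shp2-/- and 0.586 with SHP099, far below that of Slc43a2, and how its reads and those of Slc43a2 were kept apart was not tested. The GENCODE transcripts of Slc43a2 average 2200 bases while the longest has 7145, and the deposited FPKM followed the mean length. Levels of a gene are therefore comparable between groups only if the groups use its transcripts alike, which was not tested. A comparison between genes also depends on this length.

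Among the genes whose log2(FPKM + 1) followed Slc43a2 most closely over the 9 libraries were Abcf2 (Pearson r = 0.990), Fam172a (0.980), Mtx2 (0.979) and Zscan29 (0.979). The first of these, Abcf2, had an FPKM of 36.2, 32.6 and 31.9 in WT, 40.1, 39.1 and 39.7 in M-Shp2-/-, and 42.6, 44.0 and 42.2 with SHP099. Its groups were ordered as those of Slc43a2 were, over a much smaller range. These genes were picked from the highest of 11449 correlations over libraries that share their groups, and 10.4% of all tested genes had an r of at least 0.8 with Slc43a2.

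**Figure D1:**
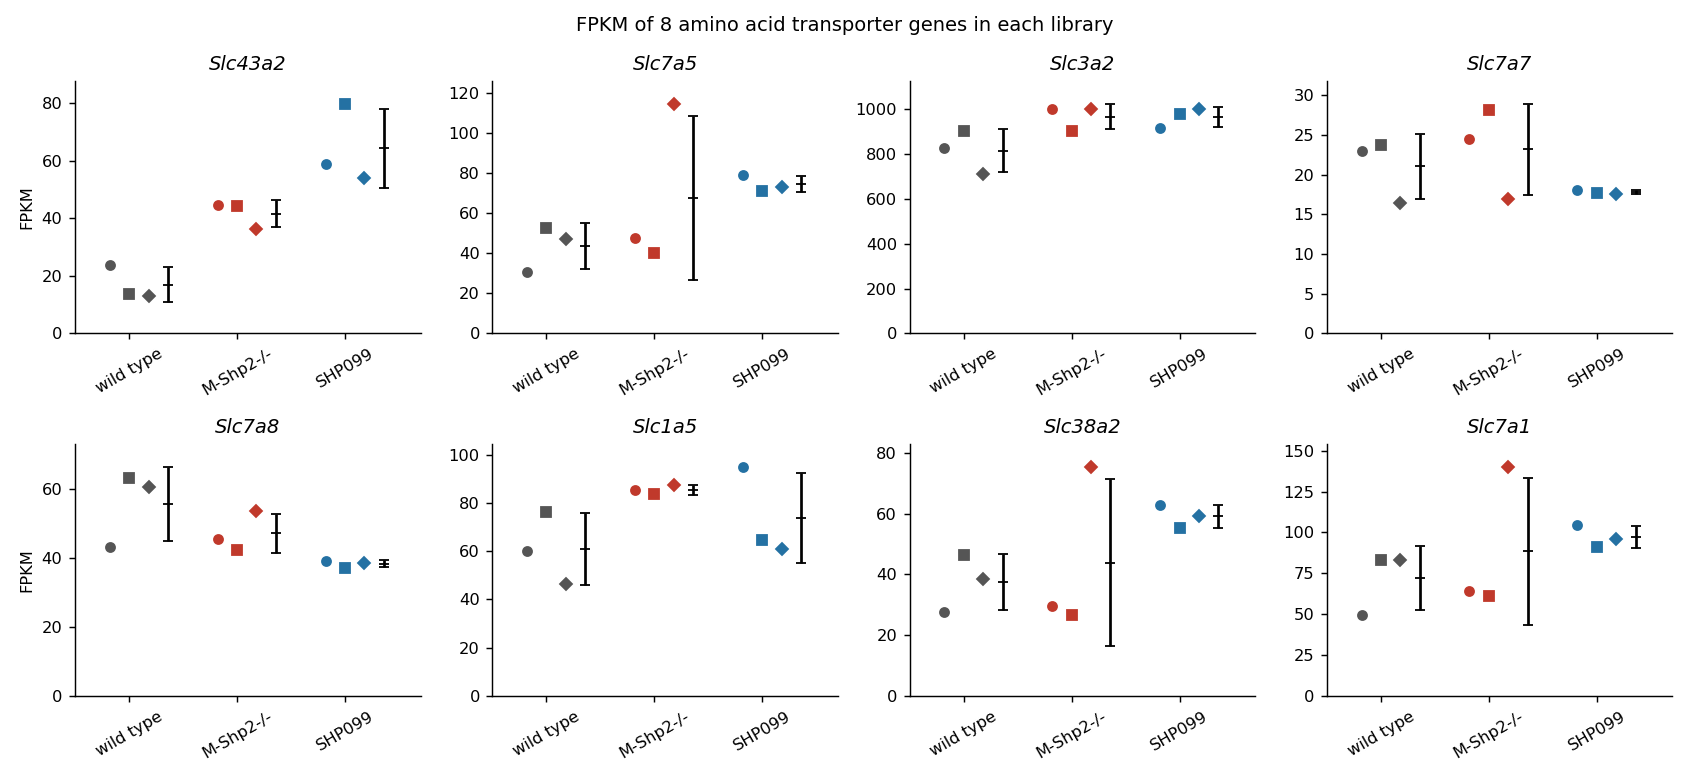
FPKM (linear axes from 0, scaled by gene) of the 8 genes in the WT (grey), M-Shp2-/- (red) and SHP099 (blue) libraries, with circle, square and diamond for replicates 1, 2 and 3 and the mean ± SD in black. The groups are apart for Slc43a2, while the diamond of M-Shp2-/- stands far above the other M-Shp2-/- libraries for Slc7a5 (114), Slc38a2 (75.4) and Slc7a1 (140).

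Slc3a2 (ENSMUSG00000010095, chr19:8706882-8723369, minus strand) encodes CD98, the heavy chain that the LAT light chains need to reach the membrane. It was the highest of the 8 genes, at 829, 903 and 712 FPKM in WT, 1000.1, 903 and 1000.3 in M-Shp2-/-, and 915, 981 and 1001 with SHP099. Its lowest library was above the highest value of any other member, 140 FPKM for Slc7a1. The difference from WT was 0.25 in M-Shp2-/- (95% interval -0.03 to 0.54, adjusted p = 0.478) and 0.25 with SHP099 (-0.01 to 0.51, adjusted p = 0.194), and after median-of-ratios scaling it was 0.075 and 0.0999. The highest WT library and the lowest M-Shp2-/- library were nearly level, and M-Shp2-/- differed from SHP099 by 0.0028 (-0.20 to 0.20).

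Slc7a5 (ENSMUSG00000040010, chr8:121881150-121907694, minus strand) encodes LAT1, the light chain that imports large neutral amino acids such as leucine. Its FPKM was 30.5, 52.5 and 47.1 in WT, 47.5, 40.2 and 114 in M-Shp2-/-, and 79.0, 71.1 and 73.2 with SHP099. The SHP099 libraries all lay above the WT libraries, whereas the M-Shp2-/- libraries overlapped WT and reached beyond SHP099 through replicate 3. With SHP099 the log2 fold change was 0.80 (95% interval 0.35 to 1.25, adjusted p = 0.0524), just short of an adjusted p of 0.05. In M-Shp2-/- it was 0.50 (-0.47 to 1.48, adjusted p = 0.577), and 0.046 without replicate 3.

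Slc7a8 (ENSMUSG00000022180, chr14:54722209-54781946, minus strand) encodes LAT2, a light chain that also takes small neutral amino acids. Its FPKM was 43.3, 63.3 and 60.5 in WT, 45.5, 42.5 and 53.6 in M-Shp2-/-, and 39.2, 37.2 and 38.6 with SHP099. It was the only member whose SHP099 libraries all lay below the WT libraries, and they lay below the M-Shp2-/- libraries too. The log2 fold change was -0.51 with SHP099 (95% interval -0.85 to -0.17, adjusted p = 0.0797) and -0.22 in M-Shp2-/- (-0.63 to 0.18, adjusted p = 0.565; -0.40 after median-of-ratios scaling).

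Slc7a7 (ENSMUSG00000000958, chr14:54369442-54417780, minus strand) encodes y+LAT1, the light chain that exports arginine and lysine in exchange for neutral amino acids and sodium. Its FPKM was 23.0, 23.8 and 16.4 in WT, 24.5, 28.2 and 16.9 in M-Shp2-/-, and 18.1, 17.7 and 17.6 with SHP099, so all groups overlapped in the comparisons with WT. The log2 fold change was 0.12 in M-Shp2-/- (95% interval -0.41 to 0.65, adjusted p = 0.791; -0.048 after median-of-ratios scaling) and -0.21 with SHP099 (-0.56 to 0.13, adjusted p = 0.399; -0.36 after that scaling). Its exons share 232 bases with Oxa1l on the other strand, whose mean FPKM was 21.3, 23.8 and 21.5 in WT, M-Shp2-/- and SHP099.

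Slc1a5 (ENSMUSG00000001918, chr7:16781340-16798274, plus strand) encodes ASCT2, a sodium-dependent exchanger of neutral amino acids that is known as a glutamine carrier. Its FPKM was 59.9, 76.4 and 46.5 in WT, 85.2, 83.5 and 87.6 in M-Shp2-/-, and 95.0, 64.7 and 61.0 with SHP099. The M-Shp2-/- libraries lay close together and above WT, including replicate 3, while SHP099 overlapped both. The log2 fold change was 0.51 in M-Shp2-/- (95% interval 0.09 to 0.93, adjusted p = 0.465) and 0.27 with SHP099 (-0.26 to 0.79, adjusted p = 0.490). The SHP099 value was 0.072 without SHP099 replicate 1, 0.091 without WT replicate 3 and 0.12 after median-of-ratios scaling.

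Slc38a2 (ENSMUSG00000022462, chr15:96687392-96699730, minus strand) encodes SNAT2, which accumulates small neutral amino acids with sodium and provides LAT1 with substrates for exchange. Its FPKM was 27.7, 46.3 and 38.5 in WT, 29.6, 26.5 and 75.4 in M-Shp2-/-, and 62.9, 55.1 and 59.3 with SHP099. The SHP099 libraries were all above WT, and M-Shp2-/- held both the lowest and the highest of the 9 values. The log2 fold change was 0.67 with SHP099 (95% interval 0.25 to 1.09, adjusted p = 0.0660). In M-Shp2-/- it was 0.087 (-0.88 to 1.05, adjusted p = 0.923), with -0.38 when replicate 3 was left out and -0.087 after median-of-ratios scaling.

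Slc7a1 (ENSMUSG00000041313, chr5:148327410-148399904, minus strand) encodes CAT1, the uniporter of arginine and other cationic amino acids. Its FPKM was 49.8, 83.4 and 83.2 in WT, 63.9, 61.1 and 140 in M-Shp2-/-, and 104, 91.0 and 96.3 with SHP099. The SHP099 libraries again all lay above WT, and 1 M-Shp2-/- library lay above all others. The log2 fold change was 0.46 with SHP099 (95% interval -0.01 to 0.93, adjusted p = 0.192) and 0.22 in M-Shp2-/- (-0.64 to 1.08, adjusted p = 0.766; -0.17 without replicate 3 and 0.043 after median-of-ratios scaling). The SHP099 value was 0.22 without WT replicate 1.

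The rule for a called gene required an adjusted p of 0.005 or less together with a log2 fold change of 1 or more in either direction. By this rule limma called 0 of the 7 members other than Slc43a2 in M-Shp2-/- against WT, where 0.00873% of all tested genes were called, and 0 of 7 with SHP099 against WT, where 0.166% were called. In M-Shp2-/- against SHP099 it called 0 of 8, as it did for 0% of all tested genes. An adjusted p of at most 0.05 alone gave 0 of 7, 0 of 7 and 0 of 8 members, against 0.0873%, 6.96% and 0.0699% of all tested genes. An unadjusted p under 0.05 was reached by 1 of 7 (Slc1a5), by 3 of 7 (Slc7a5, Slc38a2 and Slc7a8) and by 2 of 8 (Slc43a2 and Slc7a8) members, while 10.5%, 26.7% and 12.6% of all tested genes reached it. The voom test on read numbers recovered from the FPKM called 0 members in each comparison under both rules.

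In M-Shp2-/- against WT, 2 of the 7 members (Slc3a2 and Slc1a5) were higher in every M-Shp2-/- library than in any WT library and 0 were lower, against 16% and 3.07% of all tested genes. With SHP099, 4 of 7 were higher (Slc7a5, Slc3a2, Slc38a2 and Slc7a1) and 1 was lower (Slc7a8), against 27.9% and 6.77% of all tested genes. In M-Shp2-/- against SHP099, 1 of 8 was higher (Slc7a8) and 1 lower (Slc43a2), against 7.9% and 9.76% of all tested genes. The median log2 fold change of the 7 members was 0.22 in M-Shp2-/- and 0.27 with SHP099, beside medians of 0.15 and 0.13 over all tested genes. Without M-Shp2-/- replicate 3 the M-Shp2-/- median of the members was 0.046, below the 0.18 of all tested genes. After median-of-ratios scaling the members' medians were 0.043 and 0.12, beside -0.012 and -0.0051 over all tested genes. Both comparisons with WT use the same WT libraries, so they are not independent of each other.

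**Figure D2:**
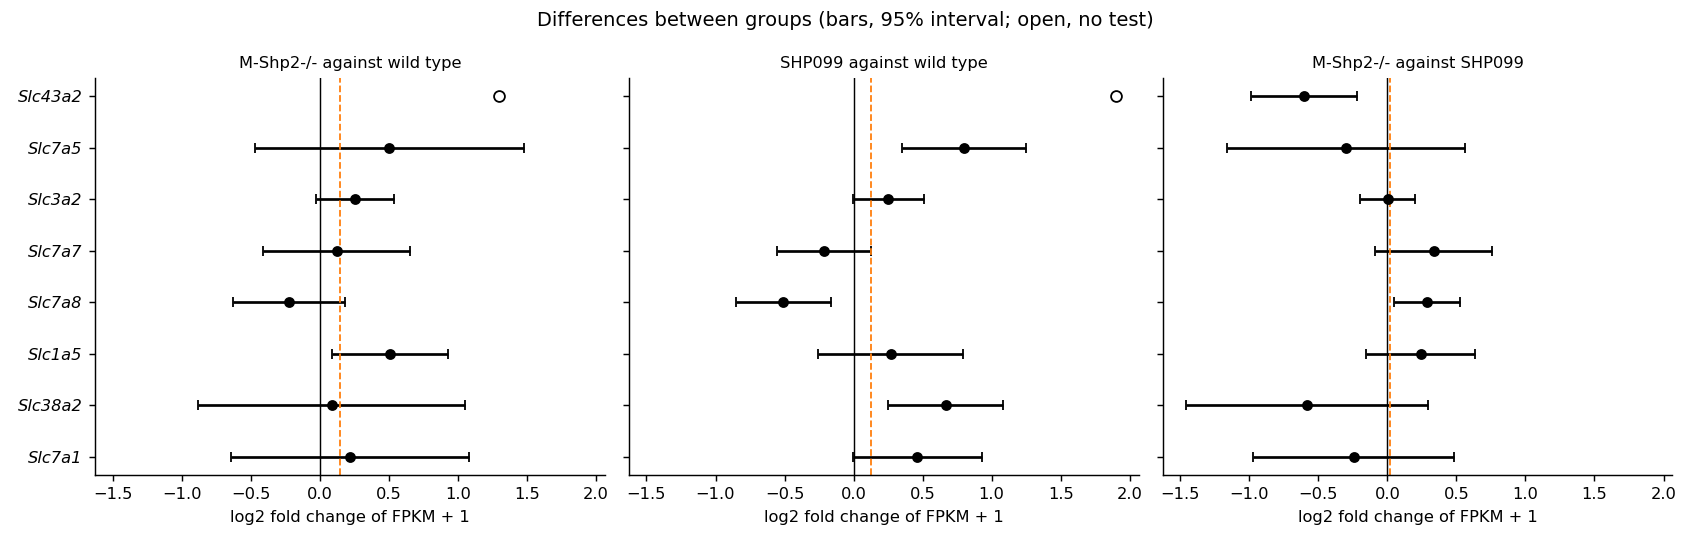
Log2 fold change of FPKM + 1 of each gene in the 3 comparisons, with bars for the 95% interval from limma, open circles for the Slc43a2 values that chose the set (no test), and a dashed line at the median of all tested genes. The 3 intervals that lie wholly on one side of 0 with SHP099 are those of Slc7a5, Slc7a8 and Slc38a2, and those of Slc7a5, Slc38a2 and Slc7a1 are wide wherever M-Shp2-/- enters.

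Leaving out M-Shp2-/- replicate 3 changed the number of genes at an adjusted p of at most 0.05. It went from 8 to 2277 in M-Shp2-/- against SHP099 and from 10 to 8 in M-Shp2-/- against WT. Without this replicate, Slc38a2 (log2 fold change -1.05, adjusted p = 0.00200), Slc7a5 (-0.75, adjusted p = 0.00489) and Slc7a1 (-0.63, adjusted p = 0.00486) were lower in M-Shp2-/- than with SHP099, and Slc7a7 was higher (0.54, adjusted p = 0.00961). That makes 4 of 8 members at an adjusted p of at most 0.05, where 19.9% of all tested genes reached it, and 1 of 8 called (Slc38a2), against 1.39%. With replicate 3 kept, the same 4 genes had adjusted p values of 0.540, 0.744, 0.753 and 0.469. The replicate left out held the highest Slc7a5 (114), Slc38a2 (75.4) and Slc7a1 (140) of all libraries and the lowest Slc7a7 of its group (16.9). Leaving it out therefore moves these 4 genes in the reported direction by construction, and the counts without it are only a description. The remaining M-Shp2-/- libraries, 1 and 2, were the pair that correlated best among same-group pairs. Why the count rose against SHP099 and not against WT was not tested.

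Slc7a5, Slc38a2 and Slc7a1 varied together. Over the 9 libraries the Pearson r of log2(FPKM + 1) was 0.943 between Slc7a5 and Slc38a2, 0.967 between Slc7a5 and Slc7a1, and 0.953 between Slc38a2 and Slc7a1. After each group's mean was subtracted it was 0.994, 0.987 and 0.975, and without M-Shp2-/- replicate 3, over 8 libraries, the r was 0.929, 0.944 and 0.943 (0.980, 0.962 and 0.931 after subtraction). Slc43a2 did not share this pattern: its r with these 3 genes was 0.423, 0.290 and 0.211, and -0.632, -0.605 and -0.714 after group means were subtracted. Its closest relation among the members was an inverse one with Slc7a8 (r = -0.891).

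Many genes of the ATF4 amino acid response followed the same 3 members. Of 27 tested genes of that list, 16 had an r of at least 0.8 with Slc7a5, 13 with Slc38a2 and 13 with Slc7a1, and 2 with Slc43a2. Over all tested genes the shares were 5.97%, 5.92%, 4.25% and 10.4%. Without M-Shp2-/- replicate 3 the counts were 12, 9, 10 and 4 of 27, and the shares of all tested genes 7.94%, 5.96%, 4.73% and 13.5%. Some genes of the list went the other way: with Slc7a5 the r over 9 libraries was -0.67 for Atf3, -0.51 for Cebpb and -0.42 for Eif2ak4. The 4 genes that follow, all with a high r, were chosen after their values were seen. Asns, the asparagine synthetase, had an FPKM of 88.7, 156 and 143 in WT, 126, 123 and 252 in M-Shp2-/-, and 185, 200.3 and 183 with SHP099. Sesn2, a leucine sensor that restrains mTORC1, was at 4.59, 10.6 and 12.0 in WT, 5.99, 5.26 and 23.9 in M-Shp2-/-, and 18.7, 14.2 and 16.1 with SHP099. Both genes were low in WT replicate 1 and highest in M-Shp2-/- replicate 3. Trib3, a pseudokinase that ATF4 induces, was at 11.9, 27.8 and 29.7 in WT, 15.9, 14.2 and 73.2 in M-Shp2-/-, and 71.8, 53.5 and 47.8 with SHP099. Atf4 itself was at 177, 249 and 206 in WT, 168, 173 and 306 in M-Shp2-/-, and 274, 256 and 239 with SHP099. All 4 were highest in M-Shp2-/- replicate 3, and WT replicate 1 and M-Shp2-/- replicates 1 and 2 held the lowest 3 values of each. The r is a description over libraries that also differed in depth and in cell markers, and may have differed in handling and cell composition.

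**Figure D3:**
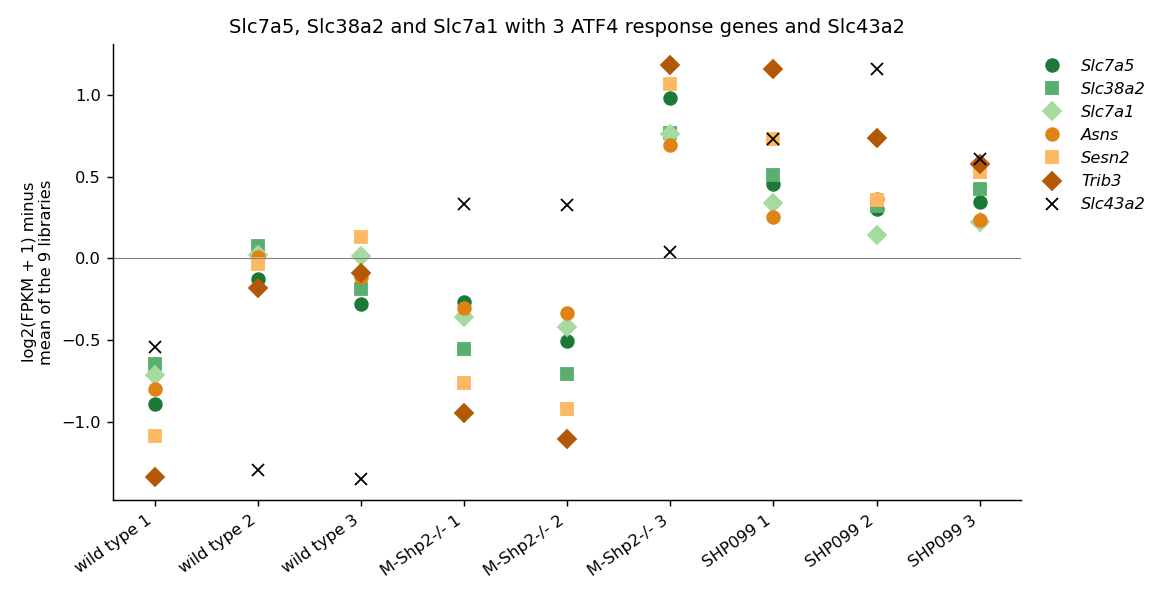
Log2(FPKM + 1) of Slc7a5, Slc38a2 and Slc7a1 (green), of Asns, Sesn2 and Trib3 (orange) and of Slc43a2 (crosses) in each library, as the difference from the gene's mean over the 9 libraries. The green and orange points lie together below 0 in WT replicate 1 and M-Shp2-/- replicates 1 and 2 and above 0 in M-Shp2-/- replicate 3 and the SHP099 libraries, while the crosses are lowest in WT replicates 2 and 3.

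Within each group, markers of fibroblasts were highest in the same library as these 3 members. The markers did not order all the remaining libraries as the members did. The summed FPKM of 6 markers (Col1a1, Col1a2, Col3a1, Dcn, Lum and Pdgfra) was 63.8, 303 and 39.8 in WT, 135, 51.4 and 586 in M-Shp2-/-, and 361, 137 and 101 with SHP099, so groups overlapped. An FPKM of 1 was reached in every library by 5 of the 6, and Lum was at most 0.251. In each group the library with the highest sum, WT replicate 2, M-Shp2-/- replicate 3 and SHP099 replicate 1, also had the highest Slc7a5, Slc38a2 and Slc7a1. The other libraries did not follow this order throughout: all 3 members were lower in WT replicate 1 than in replicate 3 and lower in SHP099 replicate 2 than in replicate 3, although the sum was higher. In M-Shp2-/- all 3 members were higher in replicate 1 than in replicate 2, as the sum was. The highest Slc43a2 of each group was not in the library with the highest sum. In bulk RNA, fewer cells of a type and less RNA per cell cannot be told apart, and the part that these cells have in the values was not tested.

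**Figure D4:**
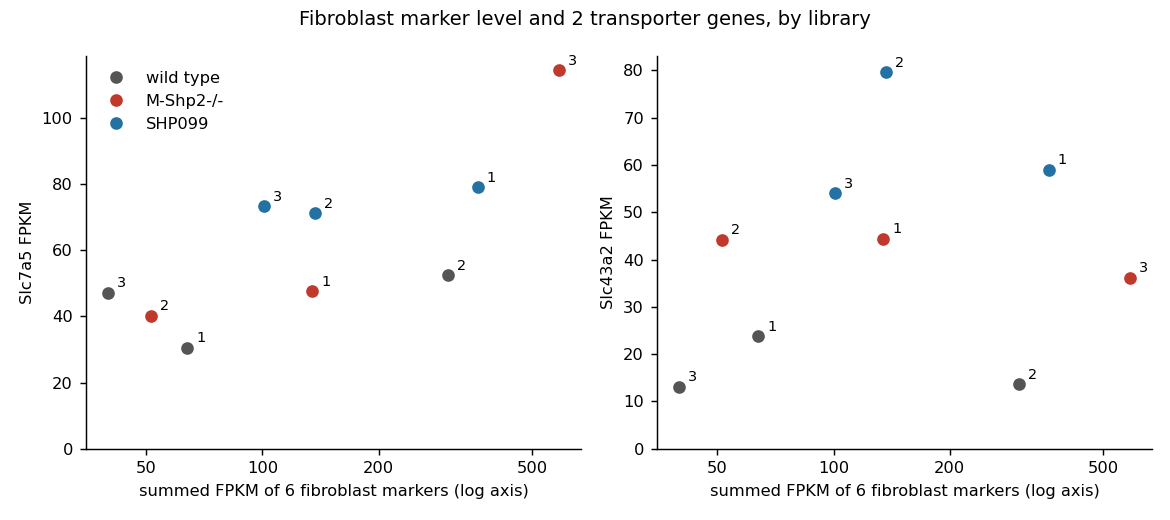
FPKM of Slc7a5 (left) and Slc43a2 (right, both linear axes) against the summed FPKM of 6 fibroblast markers (log axis), 1 point per library with its replicate number, coloured by group. M-Shp2-/- replicate 3 has the highest marker sum (586) and the highest Slc7a5 (114), whereas its Slc43a2 (36.2) is the lowest of its group.

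Of 5 mesothelial markers none reached an FPKM of 1 in every library, and their sum was at most 11.4. It was highest in the same library of each group as the fibroblast sum (8.65 in WT, 11.4 in M-Shp2-/- and 8.07 with SHP099). The sum of 5 B cell markers was 20.0, 9.32 and 2.89 in M-Shp2-/-, at most 5.48 in WT and at most 1.37 with SHP099. The sum of 5 T cell markers was at most 5.67 and that of 5 neutrophil markers 2.99 to 5.15, with Ly6g and Mpo under 0.05 in all libraries. The sum of mast cell markers was 1.59 to 4.82 in WT, 0.252 to 1.43 in M-Shp2-/- and 0.279 to 0.614 with SHP099, so WT lay above both other groups. The sum of dendritic cell markers was 3.75 to 6.11 in WT, 3.43 to 7.33 in M-Shp2-/- and 1.03 to 1.498 with SHP099, lowest in the last group. Eosinophil markers summed to at most 0.236 and erythroid markers to at most 1.53, and the part of any of these cells in the members' values was not tested. Of 5 markers of resident large peritoneal macrophages, 2 reached an FPKM of 1 in every library and the sum was 8.73 to 29.2.

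Of 50 other amino acid transporters, 20 passed the minimum. By the mean over all 9 libraries the highest were Slc15a3, a lysosomal carrier of histidine and small peptides, at 791 ± 168 FPKM in WT, 658 ± 33.2 in M-Shp2-/- and 799.6 ± 24.9 with SHP099, and Slc7a11. The latter encodes xCT, the cystine-glutamate exchanger that also pairs with CD98, and it was at 409 ± 138, 477 ± 19.4 and 486 ± 72.0 (SD, n = 3), and neither gene passed the test in any comparison. Every M-Shp2-/- library was below every SHP099 library for Slc15a3 (log2 fold change -0.28, 95% interval -0.46 to -0.10, adjusted p = 0.279). In M-Shp2-/- against WT, 0 of 20 passed an adjusted p of 0.05, against 0.0873% of all tested genes, and 16 had a log2 fold change above 0, a share close to the 77.4% of all tested genes.

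With SHP099, 4 of the 20 rose and 2 fell (adjusted p of 0.05 or less), against 6.96% of all tested genes, of which 521 rose and 276 fell, and the median was 0.27. All 6 calls were lost when any 1 SHP099 library was left out. Slc7a2, the inducible cationic amino acid carrier CAT2, fell: its FPKM was 376, 837 and 411 in WT and 143, 141 and 244 with SHP099 (log2 fold change -1.57, adjusted p = 0.0424), and it was 162, 168 and 345 in M-Shp2-/- (-1.26, adjusted p = 0.455). Slc6a12, the betaine and GABA carrier BGT1, also fell, from 36.8, 42.3 and 18.4 to 11.0, 8.11 and 12.2 (-1.49, adjusted p = 0.0374), and was 56.4, 60.0 and 14.2 in M-Shp2-/- (0.25, adjusted p = 0.839). For both genes every SHP099 library lay below every WT library. Slc6a9, the glycine carrier GLYT1, rose from 1.81, 2.77 and 1.97 to 6.12, 5.75 and 5.89 (1.13, adjusted p = 0.0141), and was 3.23, 2.59 and 7.92 in M-Shp2-/- (0.70, adjusted p = 0.482). Ctns, the lysosomal cystine exporter, rose from 32.1, 25.9 and 25.2 to 41.0, 40.8 and 38.8 (0.53, adjusted p = 0.0381), and was 37.6, 39.3 and 29.4 in M-Shp2-/- (0.34, adjusted p = 0.478). Exons of Slc6a9 share 1429 bases with Ccdc24, those of Slc15a3 share 1541 bases with Tmem132a and those of Slc7a2 share 635 bases with Gm26584, all on the other strand, so these values are uncertain to that extent. After median-of-ratios scaling, Slc7a2, Slc6a12 and Slc6a9 were past the threshold and Ctns was not (adjusted p = 0.0802).

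Of the 27 tested genes of the ATF4 list, 0 passed an adjusted p of 0.05 in M-Shp2-/- against WT. Their median log2 fold change was 0.23, or 0.054 without WT replicate 1 and -0.030 without M-Shp2-/- replicate 3. With SHP099, 22 had a log2 fold change above 0, and the median was 0.38, or 0.235 without WT replicate 1. In that comparison 2 rose, a share close to the 6.96% of all tested genes that passed, 71.2% of all tested genes being higher. Ppp1r15a, a phosphatase subunit that restores translation, was at 63.9, 60.7 and 92.0 in WT and 143, 145 and 128 with SHP099 (log2 fold change 0.95, adjusted p = 0.0235). Herpud1, a component of protein degradation at the endoplasmic reticulum, went from 68.0, 66.4 and 63.6 to 98.6, 91.7 and 95.7 (0.52, adjusted p = 0.0151). In M-Shp2-/- Ppp1r15a was at 64.5, 63.7 and 141 (0.23, adjusted p = 0.734) and Herpud1 at 67.1, 75.5 and 114 (0.33, adjusted p = 0.512), so replicate 3 reached the level with SHP099. In M-Shp2-/- against SHP099, 0 of 27 passed, whereas 10 fell and 0 rose without M-Shp2-/- replicate 3, where 19.9% of all tested genes passed. Cebpb and Mthfd2 had the highest levels of the list. Cebpb, a transcription factor, was lower in both groups, at 430 ± 56.3 in WT, 305 ± 26.6 in M-Shp2-/- and 283 ± 52.0 with SHP099 (adjusted p = 0.433 and 0.0567). Mthfd2, a mitochondrial folate enzyme, was at 234 ± 47.2, 271 ± 51.5 and 277 ± 9.84.

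The other lists held few differences. Of 40 tested genes of amino acid sensing by mTORC1, 0 passed in M-Shp2-/- and 2 rose with SHP099, a smaller share than the 6.96% of all tested genes. Flcn, the folliculin subunit that activates RagC, rose from 65.5, 58.9 and 73.2 to 103, 95.9 and 91.6 (log2 fold change 0.55, adjusted p = 0.0273), and BC048403, a subunit of the KICSTOR complex, from 13.6, 16.4 and 14.3 to 21.4, 23.1 and 21.1 (0.53, adjusted p = 0.0322). In M-Shp2-/- Flcn was at 70.3, 72.6 and 80.6 (0.18, adjusted p = 0.522) and BC048403 at 17.5, 16.2 and 19.1 (0.24, adjusted p = 0.486). Lamtor3 and Lamtor2 of the lysosomal Ragulator were the highest of the list, at 165 ± 7.95 and 158 ± 20.8 in WT, 185 ± 10.1 and 173 ± 34.9 in M-Shp2-/-, and 198 ± 6.08 and 169 ± 20.2 with SHP099. The median of the list was 0.21 in M-Shp2-/- and 0.18 with SHP099.

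Of 24 tested genes of branched-chain amino acid and glutamine catabolism, 0 passed in M-Shp2-/- and 1 rose with SHP099, again a smaller share than the 6.96% of all tested genes. This was Glul, the glutamine synthetase, at 41.1, 54.1 and 43.3 in WT, 61.0, 51.6 and 75.3 in M-Shp2-/-, and 71.5, 74.0 and 60.6 with SHP099 (log2 fold change 0.57, adjusted p = 0.0473). The median was 0.22 in M-Shp2-/- (0.12 without WT replicate 3) and 0.20 with SHP099. The highest genes, Glud1 and Dld, were at 167 ± 11.9 and 136 ± 5.12 in WT and 170.3 ± 4.72 and 137 ± 3.64 with SHP099. Of 20 cytosolic aminoacyl-tRNA synthetases, 0 passed in either comparison with WT. Their median was 0.22 in M-Shp2-/- (0.098 without M-Shp2-/- replicate 3) and 0.19 with SHP099 (0.107 without SHP099 replicate 1 and 0.126 without WT replicate 1). The highest of them, Aars (which shares 1326 exon bases with Exosc6) and Rars, were at 180.3 ± 23.5 and 149 ± 10.6 in WT, 199 ± 36.3 and 167 ± 28.5 in M-Shp2-/-, and 211 ± 14.8 and 169.7 ± 6.67 with SHP099. Comparing M-Shp2-/- with SHP099, 0 genes of any of these 3 lists or of the other transporters passed with all libraries. Without M-Shp2-/- replicate 3, where 19.9% of all tested genes passed, 2 of the 20 other transporters were higher and 5 lower, 4 of the 40 mTORC1 genes were higher and 3 lower, and each of the remaining 2 lists had 1 higher and 1 lower gene. The calls with SHP099 in all 5 lists were sensitive to the libraries: each was lost when any 1 SHP099 library was left out, as 6.96% of all tested genes became 0.410% to 1.01%. After median-of-ratios scaling, 1 rise and 2 falls among the other transporters were left of the 9 rises and 2 falls. The list medians were lower under it. In M-Shp2-/- and with SHP099 against WT they were 0.11 and 0.14 for the other transporters, 0.055 and 0.24 for the ATF4 list, 0.056 and 0.048 for mTORC1 sensing, 0.056 and 0.053 for catabolism and 0.039 and 0.043 for the synthetases. Without WT replicate 3 the median of the other transporters with SHP099 was 0.13.

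**Figure D5:**
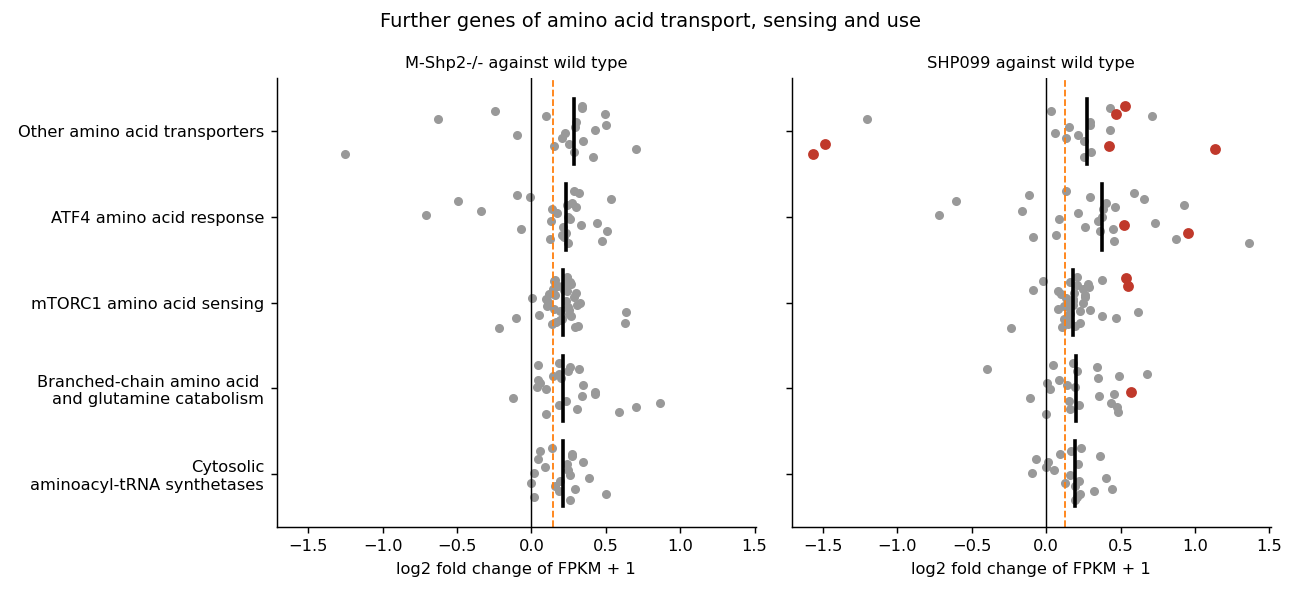
Log2 fold change of FPKM + 1 of each tested gene of the 5 further lists, in M-Shp2-/- (left) and SHP099 (right) against WT, with red for an adjusted p of at most 0.05, a black bar at each list's median and a dashed line at the median of all tested genes. Red points appear with SHP099 alone, and the list medians with SHP099, 0.18 to 0.38, lie above the dashed line at 0.13.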

How the data were processed

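The authors aligned the reads with HISAT2 2.0.4, counted them per gene with HTSeq 0.9.1 and deposited FPKM for 54059 genes in 9 libraries. CASAVA 1.8 is also named in the submitters' processing notes. The genome build is not given in the sources used here, and 353 genes were not in GENCODE M21 (GRCm38), from which symbols and positions were taken. FPKM times the rounded mean transcript length gave whole read numbers, within 0.05 reads, for 96.3% to 96.7% of values up to 50 reads. Read depth was derived from this step.

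Genes averaging 1 FPKM or more were compared as log2(FPKM + 1) with limma 3.58.1 in R 4.3.3 (eBayes with trend) on the 6 libraries of each pair of groups, because the authors' count test needs counts. P values were adjusted by Benjamini-Hochberg over all 11450 genes, two-sided. A fold change on this scale understates that of low genes. The procedure was tested on simulated data. Alternatives were pseudocounts of 0.1 and 5, other minimums, 2 scalings, no trend, a joint fit, a replicate block, voom on recovered reads and each library left out. Tables and plots used Python 3.11.15, pandas 2.3.3, numpy 2.4.6 and matplotlib 3.10.9.

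The members and lists were chosen with earlier results of these data known. Named are all members, Ptpn11, the 5 genes most like Slc43a2 (1 of them is not reported here), and of each further list the 2 highest and up to 4 with the largest change at an adjusted p of at most 0.05 per comparison. Asns, Sesn2, Trib3, Atf4, Atf3 and Eif2ak4 fall outside this rule and were chosen after their values were seen. Marker genes such as Lyz2, Csf1r and Cd68, genes with overlapping exons and the neighbours of Slc43a2 are also named outside this rule. The second deposited table lists gene spans without measurements and was left out.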

Additional observations from a re-analysis of the deposited data

How the results depend on the processing

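Of 24 log2 fold changes (8 members, 3 comparisons), 20 kept their direction under all alternatives run, and Slc43a2 stayed within 1.12 to 1.56 in M-Shp2-/- and 1.68 to 2.16 with SHP099 against WT. The 4 that turned were 0.22 or less in size. Median-of-ratios scaling gave -0.048 for Slc7a7 and -0.087 for Slc38a2 in M-Shp2-/- against WT, and -0.025 for Slc3a2 in M-Shp2-/- against SHP099. In M-Shp2-/- against WT it also gave 0.33 for Slc7a5 and 0.33 for Slc1a5. For SHP099 against WT the same scaling gave 0.65 for Slc7a5, 0.52 for Slc38a2, 0.31 for Slc7a1 and -0.66 for Slc7a8. With each library left out in turn, the ranges were -0.040 to 0.32 for Slc7a7, -0.38 to 0.36 for Slc38a2 and -0.17 to 0.43 for Slc7a1 in M-Shp2-/- against WT, and -0.035 to 0.052 for Slc3a2 in M-Shp2-/- against SHP099. The other ranges with a library left out were 0.046 to 0.79 for Slc7a5, 0.16 to 0.33 for Slc3a2, -0.39 to -0.12 for Slc7a8 and 0.33 to 0.68 for Slc1a5 in M-Shp2-/- against WT. With SHP099 against WT they were 0.57 to 0.95 for Slc7a5, 0.16 to 0.33 for Slc3a2, -0.38 to -0.12 for Slc7a7, -0.68 to -0.41 for Slc7a8, 0.072 to 0.44 for Slc1a5, 0.47 to 0.83 for Slc38a2 and 0.22 to 0.58 for Slc7a1. Members called in M-Shp2-/- against SHP099 numbered 0 to 1 with libraries left out (1 without M-Shp2-/- replicate 3) and 0 in the other 2 comparisons under all alternatives. At an adjusted p of at most 0.05, Slc7a5 passed with SHP099 against WT at a minimum mean FPKM of 5, without WT replicate 1 (with Slc7a8) and without WT replicate 2 (with Slc38a2), and Slc7a7 passed without WT replicate 3. The adjusted p of Slc7a5 there (limma) was 0.140 after median-of-ratios scaling, 0.198 in the joint fit and 0.174 without the filter. It was 0.126 to 0.178 with an SHP099 library left out. The cause of these changes was not tested.

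Replicate numbers are shared between groups, but same-numbered libraries did not deviate together (correlations of -0.43 to 0.49 over the 9 pairs). A replicate block called 0 members in each comparison, and genes at an adjusted p of at most 0.05 went from 10 to 2, from 797 to 591 and from 8 to 0 in M-Shp2-/- against WT, SHP099 against WT and M-Shp2-/- against SHP099.

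The counts over all genes moved more. Genes called with SHP099 against WT went from 19 to 0 without a filter on low FPKM, 4 without the trend, 2 with voom, 0 with the block and 0 to 26 with a library left out. Genes at an adjusted p of at most 0.05 there went from 797 to 74 without the filter, 511 after median-of-ratios scaling and 47 to 1273 with a library left out. For M-Shp2-/- against WT, 10 such genes became 6 without the trend and 1 to 8 with a library left out, and the 1 called gene became 3 after median-of-ratios scaling, 2 in the joint fit and 0 with a library left out, without the filter, without the trend or with the block. Between M-Shp2-/- and SHP099, 8 such genes became 3 without the filter, 17 at a mean FPKM of 5, 3 in the joint fit and 0 to 2277 with a library left out, the last without M-Shp2-/- replicate 3. Counts of the further lists under the scalings and with libraries left out were alternatives chosen after seeing the data, as were the macrophage marker sum without Lyz2 and the correlations without M-Shp2-/- replicate 3. Each member had 783 or more reads in every library.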

Other observations

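The nearest tested genes on either side of Slc43a2 on chromosome 11 were Scarf1 (chr11:75513540-75526582), a scavenger receptor, and Pitpna (chr11:75588097-75628804), a phosphatidylinositol transfer protein. They were chosen by position. Scarf1 had an FPKM of 10.3, 17.4 and 19.8 in WT, 10.9, 9.05 and 17.3 in M-Shp2-/-, and 20.9, 26.3 and 33.9 with SHP099. Its log2 fold change was -0.33 in M-Shp2-/- (adjusted p = 0.618, limma) and 0.76 with SHP099 (adjusted p = 0.122). Pitpna was at 212, 209 and 180.4 in WT, 242, 218 and 203 in M-Shp2-/-, and 236, 238 and 222 with SHP099, which is 0.14 above WT on the log2 scale in M-Shp2-/- (adjusted p = 0.565) and 0.21 above it with SHP099 (adjusted p = 0.183). Neither passed the test in these comparisons.

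Some of the aminoacyl-tRNA synthetases, which load tRNAs with amino acids, varied with Slc7a5 between libraries. Of the 20 cytosolic synthetases, 10 had an r of at least 0.8 with Slc7a5, 9 with Slc38a2, 9 with Slc7a1 and 0 with Slc43a2 over the 9 libraries, beside 5.97%, 5.92%, 4.25% and 10.4% of all tested genes. Without M-Shp2-/- replicate 3 the counts were 9, 6, 6 and 0. These shares are descriptions of the same libraries and were not tested.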
